A study of Homo sapiens with 6 samples.

Results

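The high mobility group genes are described here through their introns, exons and spliced reads: HMGN1, HMGN2, HMGN3, HMGN4, HMGA1, HMGA2, HMGB1 and HMGB2. The family was chosen by the inclusion values of an HMGN1 intron already known to be lower in siSFSWAP in these data, so the values of that intron are given as a description. An event, which is 1 intron or 1 exon between fixed neighbouring exons, was taken when its junctions averaged 20 or more reads in a library. That left 32 of the 41 listed introns of these genes, out of 12867 introns past the same minimum in the whole series, and 128 of their 183 listed exon events, out of 101163. HMGN4 and HMGA2 had no listed intron. At the minimum, an HMGN1 intron just inside had a mean of 25.5 reads and one just outside had 18.5, and HMGN1 exon events on both sides had 24.5 and 18.

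All libraries came from HEK293A-TOA, a line derived from human embryonic kidney cells, grown without any inhibitor. The 3 siSFSWAP libraries (a, b and c) came from cells that received a 40 nM mixture of 2 siRNAs against SFSWAP, and the 3 siNT libraries from cells that received a non-target siRNA. Polyadenylated RNA was collected 5 days after transfection. SFSWAP is a nuclear protein related to the SR family of splicing factors, and the comparison asks which splicing choices change when it is reduced. The letters only name libraries and do not pair them across groups.

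HMG proteins are abundant, small chromatin proteins of 3 unrelated kinds. HMGN proteins bind the nucleosome core through a short, highly conserved domain and loosen chromatin, HMGA proteins hold AT-hooks that bind the minor groove of AT-rich DNA, and HMGB proteins bend DNA with HMG boxes. Members of all kinds are common in embryonic and dividing cells, and several HMG genes have left processed copies across the genome.

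SFSWAP itself had 34.7, 34.6 and 21.3 CPM of spliced reads (its reads at exon junctions, scaled so that a library's total is 1000000) in siSFSWAP, against 79.7, 86.5 and 80.2 in siNT, a log2 change of -1.46 (SE 0.16). The exon table held between 19515010 and 31980079 junction reads in siSFSWAP libraries and between 20820210 and 55274283 in siNT libraries. The intron table held between 2767079 and 4450930 junction reads in siSFSWAP libraries and between 2827762 and 7465949 in siNT libraries. Of the markers of this kidney line, KRT8, KRT18 and CDH2 were listed in the exon table and summed to between 151 and 160 CPM in siSFSWAP and between 162 and 208 in siNT, whereas PAX2 and LHX1 were not listed. Among the 8 markers of blood, liver, fibroblast and muscle cells only COL1A1 was listed, at 0.41 to 0.51 CPM in siSFSWAP and 0.37 to 0.44 in siNT.

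HMGN1, HMGN2 and HMGN3 have an exon 3 of 30 nt that is coding throughout and encodes the conserved core of the nucleosome-binding domain. It holds whole codons in all of these genes. The exon is shown because the results below turn on whether it is kept. It is in capitals, with the last 20 bases of the intron before it and the first 10 of the intron after it, from the GRCh38 sequence and GENCODE release 44. Coordinates span the printed bases.
HMGN1 exon 3, chr21:39348412-39348471, minus strand: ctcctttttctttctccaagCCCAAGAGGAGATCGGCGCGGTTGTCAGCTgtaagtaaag
HMGN2 exon 3, chr1:26473683-26473742, plus strand: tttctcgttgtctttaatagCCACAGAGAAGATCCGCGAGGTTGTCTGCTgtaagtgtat
HMGN3 exon 3, chr6:79208537-79208596, minus strand: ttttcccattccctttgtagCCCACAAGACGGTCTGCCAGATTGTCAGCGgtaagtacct
The exons of HMGN1 and HMGN2 had the same base at 24 of 30 positions, those of HMGN1 and HMGN3 at 20, and those of HMGN2 and HMGN3 at 19, and 17 positions were the same in all. The introns ended in ag and began with gt in each case. GC content of the exon was 63.3% in HMGN1, 56.7% in HMGN2 and 60.0% in HMGN3, against a median of 46.7% over the 83 tested exons of exactly 30 nt and 50% over all 43287 tested exons.

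HMGN1 (ENSG00000205581, chromosome 21) joined exon 2 directly to exon 4 in all siSFSWAP libraries and almost never in siNT. This skipping junction had 26, 18 and 30 reads in siSFSWAP libraries a, b and c, against 0, 1 and 0 in siNT. Exon 3 itself (39348422 to 39348451) had 1104, 616 and 675 inclusion reads in siSFSWAP, against 1691, 682 and 591 in siNT. Counted at this junction alone, the exon was skipped in 2.98%, 3.67% and 5.47% in siSFSWAP, against 0%, 0.19% and 0% in siNT. These shares were computed from the reads of each form divided by its effective length. Exact 95% intervals, which cover counting error only, ran from 1.96% at the lowest to 7.70% at the highest in siSFSWAP, and the upper limits in siNT were at most 1.06%. Mean inclusion was 96.0% ± 1.3 in siSFSWAP and 99.9% ± 0.1 in siNT (SD, n = 3 each), a difference of -3.98 points. Because these are also the reads of the intron that chose the family, the separation of the groups and the intervals of this exon are a description with no test. The same exon is also listed with another skipping junction, which had 5, 4 and 8 reads in siSFSWAP and 0, 4 and 1 in siNT. There it was skipped in 1.72%, 2.42% and 4.39% in siSFSWAP, against 0%, 2.36% and 0.63% in siNT. Those groups overlapped, and the change of -1.85 points did not pass (adjusted p = 0.203, quasi-binomial test moderated with limma).

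The HMGN1 intron that brought the family together rests on the same reads. It covers 205 nt (39348340 to 39348544) and holds all of exon 3, so its spliced form is the junction of exon 2 with exon 4. Its spliced reads equal the exon 3 skipping reads of that junction in all 6 libraries. Its inclusion, the share that rMATS counts as retained, was 49.5%, 55.6% and 44.4% in siSFSWAP, against 100%, 96.5% and 100% in siNT. The reads counted as retained were 51, 45 and 48 in siSFSWAP and 88, 55 and 40 in siNT. Scaled to CPM of the intron table these were 11.5, 16.3 and 15.3 in siSFSWAP and 11.8, 17.2 and 14.1 in siNT, so they overlapped, whereas the spliced reads were 5.84, 6.51 and 9.56 CPM in siSFSWAP and 0, 0.31 and 0 in siNT. The change of -49.0 points (means 49.8% ± 5.6 and 98.8% ± 2.0, SD, n = 3 each) thus came with more skipping reads and no fewer retained reads.

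The introns on either side of exon 3 gave the other view of the same stretch. Intron 3 (39348340 to 39348421, 82 nt) was retained in 2.17%, 2.84% and 2.45% in siSFSWAP, against 1.64%, 3.55% and 2.78% in siNT. Intron 2 (39348452 to 39348544, 93 nt) was retained in 2.7%, 4.45% and 4.32% in siSFSWAP, against 3.48%, 4.15% and 3.71% in siNT. In both the groups overlapped, and the changes of -0.17 points (adjusted p = 0.951) and 0.04 points (adjusted p = 0.981) did not pass the quasi-binomial test moderated with limma.

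**Figure D1:**
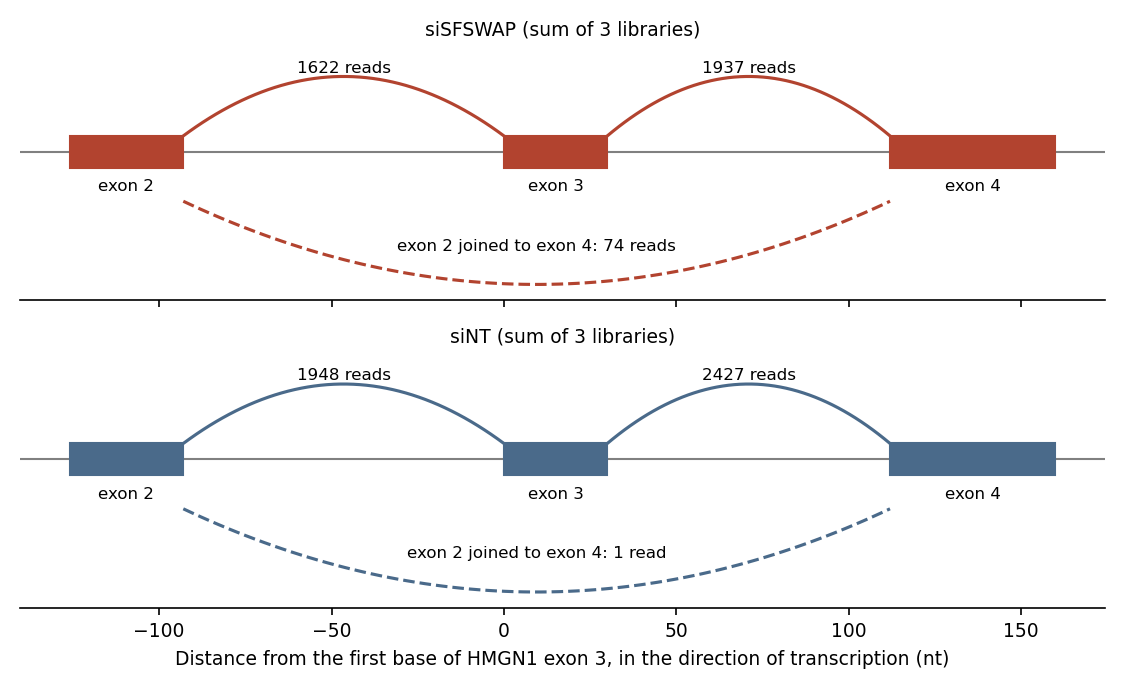
Map of HMGN1 exons 2, 3 and 4, to scale, by distance in nt from the first base of exon 3, with siSFSWAP above and siNT below. Solid arcs are introns 2 and 3 and the dashed arc is the junction that skips exon 3, each with its reads summed over 3 libraries: the skipping junction had 74 reads in siSFSWAP and 1 in siNT, next to 1622 and 1937 reads of the flanking introns in siSFSWAP and 1948 and 2427 in siNT.

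HMGN3 (chromosome 6), whose protein belongs to the same nucleosome-binding family, skipped its exon 3 more often as well. The junction of exon 2 with exon 4 had 29, 26 and 33 reads in siSFSWAP, against 0, 5 and 1 in siNT. Inclusion reads of exon 3 (79208547 to 79208576) were 698, 400 and 370 in siSFSWAP and 1239, 358 and 317 in siNT. The skipped share was 5.14%, 7.81% and 10.4% in siSFSWAP, with exact 95% intervals between 3.47% and 14.2%, and 0%, 1.79% and 0.41% in siNT, where the intervals reached up to 4.11%. No siNT library came up to the lowest siSFSWAP library. Mean inclusion fell by 7.05 points to 92.2% ± 2.6 in siSFSWAP, against 99.3% ± 0.9 in siNT (SD, n = 3 each), with an adjusted p of 0.000198 (quasi-binomial test moderated with limma).

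An event was called where that adjusted p was at most 0.05 and the mean change at least 20 points, and by this rule only alternative forms of HMGN3 exon 3 were called among the exons of the family. A 29-nt form (79208547 to 79208575) was included at 82.2%, 78.5% and 69.9% in siSFSWAP, against 100%, 93.9% and 98.7% in siNT, and fell by 20.7 points (adjusted p = 0.000114). A 225-nt form (79208547 to 79208771) was included at 75%, 71.1% and 60.2% in siSFSWAP, against 100%, 90.9% and 98.0% in siNT, and fell by 27.5 points (adjusted p = 0.000123). Both forms end at the same 5′ splice site as the 30-nt exon and take the same skipping reads as it. Their inclusion reads numbered 99 to 174 per siSFSWAP library, below those of the 30-nt form, so the same skipping reads weigh more in them. They are 1 measurement given under different exon boundaries, not independent changes. When the log2 odds were fitted with limma instead, none passed (adjusted p = 0.0645 for the 29-nt form, 0.0631 for the 225-nt form and 0.0751 for the 30-nt exon), and without siSFSWAP library c or siNT library a the change of the 29-nt form was -17.2 or -19.4 points, under the size needed for a call.

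HMGN2 (chromosome 1), the member with the most spliced reads, showed the same junction at a much lower share. The junction of exon 2 with exon 4 had 13, 11 and 21 reads in siSFSWAP, against 8, 4 and 0 in siNT, next to 7445, 4601 and 5385 inclusion reads of exon 3 (26473703 to 26473732) in siSFSWAP and 9362, 3173 and 2841 in siNT. The skipped share was 0.23%, 0.31% and 0.51% in siSFSWAP and 0.11%, 0.16% and 0% in siNT. The groups did not overlap, but the intervals of single libraries did, and the change of -0.26 points did not pass (adjusted p = 0.112). An HMGN2 intron of 557 nt (26473528 to 26474084) holds exon 3 in the way the HMGN1 intron does and takes its spliced reads from that junction. It was included at 89.1%, 85.8% and 80.6% in siSFSWAP, against 95.1%, 93.3% and 100% in siNT, a change of -11.0 points that did not pass (adjusted p = 0.0899). The largest change among tested HMGN2 exon events was -18.2 points, at 26474575 to 26474968, and did not pass (adjusted p = 0.434, quasi-binomial test). The deepest, exon 5 (26474572 to 26474667), changed by -0.08 points (adjusted p = 0.474).

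In siSFSWAP the skipped share of exon 3 was highest in library c in HMGN1, HMGN2 and HMGN3, and library c also had the fewest SFSWAP reads. With 3 libraries this order is a description only.

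**Figure D2:**
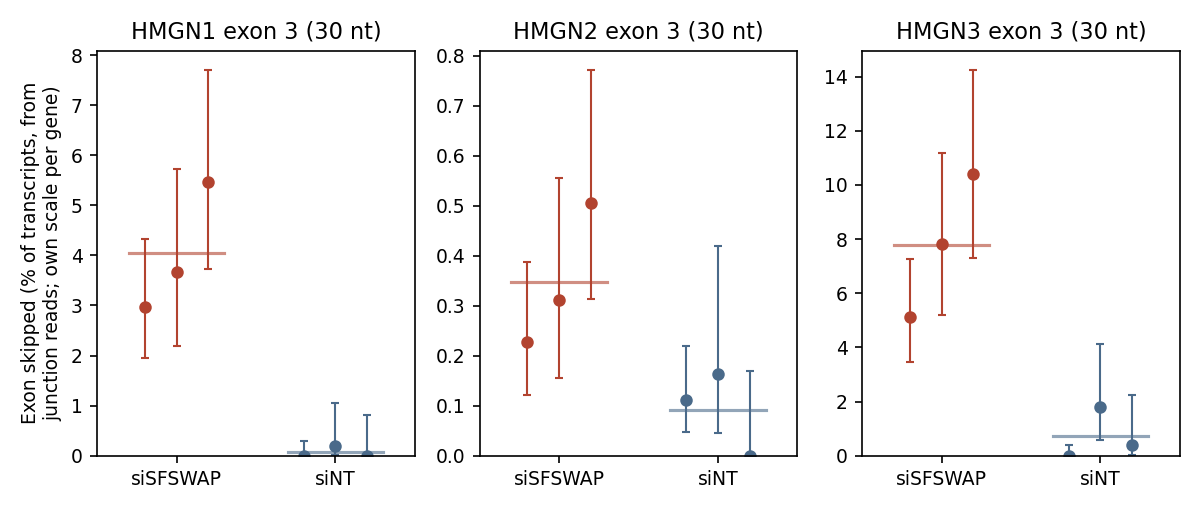
Share of transcripts that skip exon 3 of HMGN1, HMGN2 and HMGN3 in percent (y axis, a separate scale per gene), for siSFSWAP on the left and siNT on the right. Points are libraries a, b and c with exact 95% intervals and lines are group means: the means were 4.04%, 0.35% and 7.79% in siSFSWAP and 0.06%, 0.09% and 0.73% in siNT for HMGN1, HMGN2 and HMGN3.

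Exon 2 of HMGN1 and HMGN3 and exon 4 of HMGN1 had fewer skipping reads in siSFSWAP than exon 3 of the same gene. HMGN2 exon 2 (26473483 to 26473527, 45 nt, coding) was skipped by 7, 9 and 25 reads in siSFSWAP, against 1, 1 and 0 in siNT. Its inclusion fell by 0.31 points (99.7% ± 0.2 in siSFSWAP and 99.98% ± 0.02 in siNT, SD, n = 3 each) with an adjusted p of 0.0210 in the quasi-binomial test, which ranged between 0.0188 and 0.162 over the alternatives. It no longer passed in limma on the log2 odds (adjusted p = 0.0877) or without siSFSWAP library b or c or siNT library b or c, and without siSFSWAP library c, which holds most of the skipping reads, the change was -0.17 points. HMGN1 exon 2 (33 nt) had 1, 0 and 9 skipping reads in siSFSWAP and 0, 0 and 1 in siNT, which did not pass (adjusted p = 0.253). HMGN3 exon 2 (51 nt) had 1, 0 and 0 skipping reads in siSFSWAP and none in siNT and was not tested, having fewer than 5 such reads. HMGN3 exon 5 (79202276 to 79202389), the deepest exon event of that gene, changed by -0.37 points (adjusted p = 0.888, quasi-binomial test).

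The skipping junction of HMGN1 exon 4 (39348292 to 39348339, 48 nt) had 0, 0 and 2 reads in siSFSWAP, against 10, 2 and 14 in siNT, and inclusion of the exon was 99.9% ± 0.3 in siSFSWAP and 98.4% ± 1.7 in siNT (SD, n = 3 each). The lowest siSFSWAP library, at 99.56%, was just above the highest siNT library, at 99.55%, and the change of 1.47 points did not pass (adjusted p = 0.114). It was 1.86 points without siNT library a (adjusted p = 0.00621) and 0.50 points without siNT library c (adjusted p = 0.291). A 129-nt HMGN1 exon that lies in intron 4 (39345830 to 39345958) is listed in several events. In the event that shares those skipping reads it was included at 100%, 100% and 90.7% in siSFSWAP, against 83.7%, 91.5% and 55.6% in siNT. The change of 19.97 points in that event was the largest positive value among exon events of the family. It did not pass either (adjusted p = 0.115), except without siNT library a, where it was 23.4 points (adjusted p = 0.0120). Without siNT library c it was 9.28 points (adjusted p = 0.295). Set against the spliced reads of intron 4, the same exon was rare. There it was included at 4.40% ± 1.35 in siSFSWAP and 5.20% ± 0.69 in siNT (SD, n = 3 each; adjusted p = 0.775, quasi-binomial test). Further events of this exon changed by -1.88 and 7.67 points and did not pass (adjusted p = 0.975 and 0.647), so its change differed with the skipping junction.

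Over the family, 77 of the 128 exon events could be tested, that is, had at least 5 reads of each form. Of these 58 had a lower value in siSFSWAP and 19 a higher one, with a median change of -0.44 points. Over all 48100 tested exon events 20428 were lower and 27671 higher, with a median of 0.30 points. The 128 family events rest on 46 skipping junctions, among them the HMGN1 junction that chose the family. The split is therefore not a count of independent changes. An adjusted p of at most 0.05 whatever the size was reached by 12, or 15.6% of those tested beside a background of 5.42%, and 12 of 12 were lower. In limma on the log2 odds only 2 reached it, both lower. The 12 rest on only 3 junctions: the exon 3 skipping junctions of HMGN1 (2 events) and HMGN3 (3 events) and the exon 2 skipping junction of HMGN2 (7 events). The HMGN1 junction is the one whose reads chose the family. The 2 called lower compare with a background of 0.655% of exon events called lower, and rest on a single junction. None was called higher, beside a background of 1.44%. At an unadjusted p under 0.05, 5 of the 77 were higher and 25 lower in the quasi-binomial test. In limma on the log2 odds these were 5 higher and 20 lower. The share of all tested exon events at this unadjusted limit is not given, so nothing is read from these counts. Of the 922 tested exon events of 30 nt or less in all genes, 31 were called lower and 17 higher, and of the 94 of exactly 30 nt, 2 were called and both were higher.

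Of the 32 introns, 22 could be tested, 10 with a lower and 12 with a higher value in siSFSWAP, and their median change was 0.02 points beside -0.52 points over all 10155. The HMGN1 intron was the only one called, beside backgrounds of 1.61% of introns called lower, 0.148% called higher and 3.22% with an adjusted p of at most 0.05 whatever the size. It was not called in limma on the log2 odds. Nothing is read from this count, since that intron chose the family. At an unadjusted p under 0.05, 1 family intron was higher in either test, 2 were lower in the quasi-binomial test and 3 in limma on the log2 odds. The HMGN1 intron that chose the family is among those lower in the quasi-binomial test. The share of all tested introns at this unadjusted limit is not given, so nothing is read from these counts. A whole exon lay between the same outer splice sites in 15 of the 163 introns called lower (9.20%), in 7 of the 15 called higher and in 591 of all 10155 tested (5.82%).

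Introns of the annotated main transcripts gave no call. HMGN2 intron 4 (26474136 to 26474571), the deepest of the family, was retained in 0.59%, 0.50% and 0.54% in siSFSWAP, against 0.47%, 0.58% and 0.51% in siNT. HMGN1 intron 4 (39345275 to 39348291) was retained in 6.44% ± 0.78 in siSFSWAP and 7.13% ± 0.56 in siNT (SD, n = 3 each; adjusted p = 0.697). HMGN3 intron 5 (79202156 to 79202275) was counted as retained in 95.6%, 100% and 100% in siSFSWAP and 91.3%, 93.8% and 83.3% in siNT, on 20 to 84 retained reads a library (adjusted p = 0.516). No other HMGN intron was called.

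**Figure D3:**
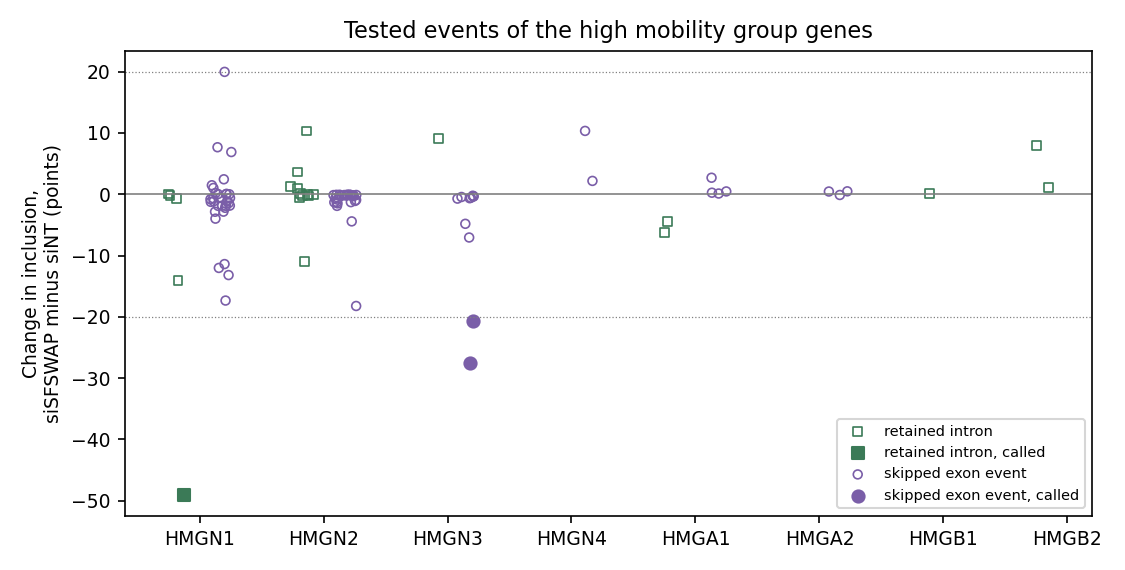
Change in inclusion in points, siSFSWAP minus siNT, of each tested event of the 8 genes, with introns as squares and exon events as circles. Filled marks were called and dotted lines mark 20 points: 1 HMGN1 intron and 2 HMGN3 exon events lie below -20, and HMGB1 and HMGB2 have introns only.

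HMGN4 (chromosome 6), whose coding sequence lies in a single exon, has its listed alternative exons before that exon. A 126-nt one (26539901 to 26540026) was included at 14.0%, 8.86% and 21.2% in siSFSWAP, against 7.04%, 2.56% and 3.45% in siNT. The groups did not overlap, on 7 to 14 inclusion reads a library in siSFSWAP and 2 to 10 in siNT, and the change of 10.3 points did not pass (adjusted p = 0.0868). A 139-nt exon of the same gene shares its skipping reads and was included at 3.51% ± 1.69 in siSFSWAP and 1.33% ± 1.17 in siNT (SD, n = 3 each; adjusted p = 0.499).

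The AT-hook genes had no call. In HMGA1 (chromosome 6), noncoding exon 2 (34237204 to 34237317) was included at 94.7%, 95% and 93.2% in siSFSWAP, against 93.5%, 92.0% and 89.3% in siNT, with one siSFSWAP library below one siNT library (adjusted p = 0.513). Coding exon 4 of HMGA1 (34242712 to 34242795) had no skipping read among 2765, 1831 and 2034 reads in siSFSWAP, against 2, 2 and 7 in siNT (change 0.26 points, adjusted p = 0.204). Intron 1 of HMGA1 (34236964 to 34237203) was retained in 21.0%, 8.9% and 18.2% in siSFSWAP, against 25.1%, 19.1% and 22.7% in siNT (adjusted p = 0.526). A deeper HMGA1 intron event (34243519 to 34243615) was counted as retained in 90.1%, 96.9% and 97.0% in siSFSWAP, against 97.1%, 100% and 100% in siNT (adjusted p = 0.483). In HMGA2 (chromosome 12), the gene of an oncofetal relative of HMGA1, the 33-nt exon 4 (65951383 to 65951415) was included at 99.3% ± 0.6 in siSFSWAP and 98.8% ± 0.2 in siNT (SD, n = 3 each; adjusted p = 0.759). This exon is nearly as short as exon 3 of the HMGN genes, and its skipping junction had 5, 2 and 0 reads in siSFSWAP and 12, 3 and 3 in siNT.

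The HMG box genes spliced almost without alternatives. Exons 2 and 3 of HMGB1 (chromosome 13) and exon 2 of HMGB2 (chromosome 4) each had 1 skipping read in siSFSWAP and 1 in siNT, on 5565 to 11369 inclusion reads in siSFSWAP and 5235 to 13426 in siNT. HMGB1 intron 2 (30463353 to 30463530) was retained in 0.43% ± 0.11 in siSFSWAP and 0.35% ± 0.22 in siNT (SD, n = 3 each; adjusted p = 0.742). HMGB2 intron 3 (173332996 to 173333068, 73 nt) was retained in 3.43%, 3.87% and 3.97% in siSFSWAP, against 2.28%, 3.11% and 2.39% in siNT. In this intron the groups did not overlap and the change of 1.16 points did not pass (adjusted p = 0.173). The largest change of a tested HMGB2 intron was 7.97 points, in an event that covers it (173332996 to 173333117). That event was counted as retained in 79.2%, 76.5% and 69.7% in siSFSWAP, against 71.0%, 59.1% and 71.4% in siNT (adjusted p = 0.686).

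Spliced reads per gene were the junction reads of the exon table summed over a gene's exons, with 1 event per exon, and scaled to CPM. Splicing changes and RNA amount both move them, and they are shares of a library's reads. A different share of cells with the RNA and a different amount per cell cannot be told apart in them. HMGN2 had 4171, 4279 and 4498 CPM in siSFSWAP, against 3008, 2455 and 2512 in siNT, and rose by 0.70 on the log2 scale (SE 0.08, adjusted p = 0.000353, limma). Every siSFSWAP library was above every siNT library. The spliced reads of HMGN2 intron 4, counted in the other table, gave 1739, 1674 and 1790 CPM in siSFSWAP and 1348, 990 and 1039 in siNT.

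HMGB2, a protein of dividing cells, had 254, 258 and 262 CPM of spliced reads in siSFSWAP, against 184, 179 and 176 in siNT, and rose by 0.52 on the log2 scale (SE 0.07, adjusted p = 0.000747, limma). The spread within each group was small beside the difference. HMGB2 intron 3 gave 335, 321 and 329 CPM of spliced reads in siSFSWAP and 238, 236 and 241 in siNT. These were the 2 genes of 8 called, both higher, beside backgrounds of 14.7% of 10780 genes called higher and 15.6% called lower.

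The other members did not pass. HMGN1 had 625, 595 and 561 CPM of spliced reads in siSFSWAP and 587, 506 and 484 in siNT, which overlap (log2 change 0.18, adjusted p = 0.121). HMGN3 had 347, 335 and 274 in siSFSWAP and 336, 219 and 229 in siNT (log2 change 0.30, adjusted p = 0.131). HMGB1, the close relative of HMGB2, had 596, 623 and 603 in siSFSWAP and 554, 543 and 546 in siNT, without overlap (log2 change 0.15, adjusted p = 0.0916). From the intron table the log2 change of HMGB1 was 0.03 (adjusted p = 0.784).

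HMGA1 and HMGA2 had lower values in the exon table, whereas the intron table gave HMGA1 a log2 change of 0.10. The exon table value of HMGA1 rests on 8451 to 25876 reads a library. Its intron table value rests on far fewer, with 29 to 64 spliced reads a library in intron 1 and 0 to 5 in the other introns past the read minimum. HMGA1 had 448, 494 and 477 CPM of spliced reads in siSFSWAP and 533, 517 and 598 in siNT, without overlap (log2 change -0.21, adjusted p = 0.0526). HMGA2 had 103, 85.7 and 64.4 in siSFSWAP and 116, 93.2 and 100.4 in siNT (log2 change -0.31, adjusted p = 0.133). HMGN4 had 3.67, 4.86 and 3.44 in siSFSWAP and 2.99, 3.8 and 3.23 in siNT (log2 change 0.22, adjusted p = 0.387). No member was called lower. At an unadjusted p under 0.05 HMGA1 was lower and 3 members were higher. The share of all tested genes at this limit is not given, so nothing is read from this count. The median log2 change was 0.20 over the 8 genes and -0.005 over all genes tested. Leaving out library a of siNT, the deepest, changed the count of called genes the most. Without it HMGN1 (log2 change 0.26, adjusted p = 0.00271), HMGN3 (0.50, 0.000337), HMGB1 (0.16, 0.0264) and HMGA1 (-0.23, 0.0126) passed too in limma.

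**Figure D4:**
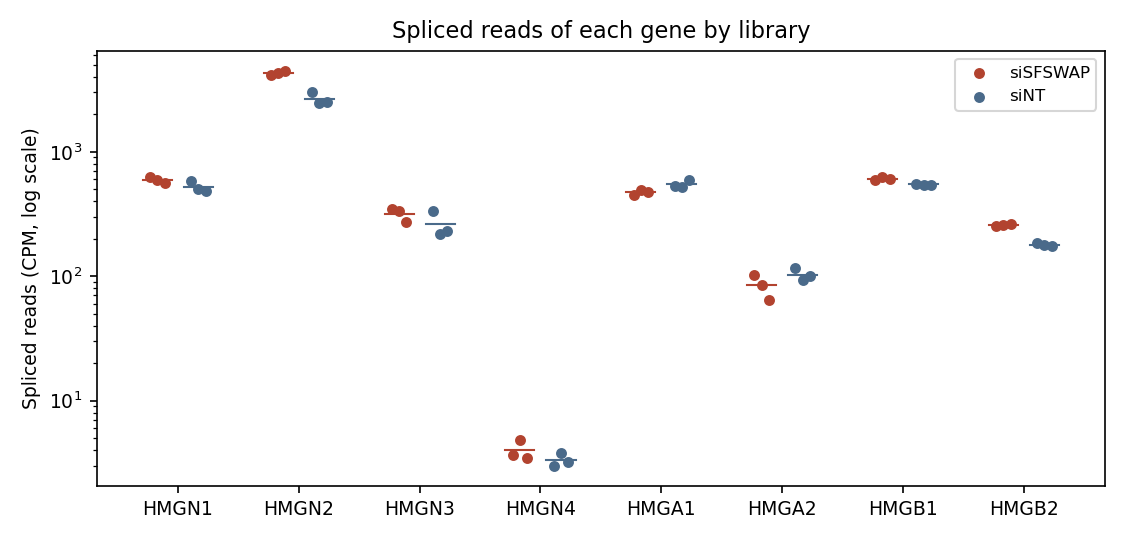
Spliced reads in CPM of the 8 genes on a log axis, for siSFSWAP on the left and siNT on the right of each pair. Points are libraries a, b and c and lines are group means: the siSFSWAP libraries lie above all siNT libraries in HMGN2 (means 4316 and 2658) and HMGB2 (258 and 180), and HMGN4 is lowest.

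Levels can be compared between genes only per length. For each gene's deepest exon event the CPM per 100 nt of effective length was highest for HMGN2, at 194 ± 7 in siSFSWAP and 120 ± 11 in siNT (SD, n = 3 each). HMGB1 followed with 78.5 ± 3.4 in siSFSWAP and 69.1 ± 2.5 in siNT, and HMGA1 with 49.5 ± 2.1 in siSFSWAP and 57 ± 4.8 in siNT. HMGB2 had 38.2 ± 1.0 in siSFSWAP and 26.2 ± 1.0 in siNT, and HMGN1 26.0 ± 1.4 in siSFSWAP and 22.8 ± 0.9 in siNT. HMGN3 had 20.8 ± 2.6 in siSFSWAP and 15.9 ± 4.1 in siNT, and HMGA2 13.7 ± 3.1 in siSFSWAP and 15.5 ± 1.7 in siNT. HMGN4 was last, with 1.71 ± 0.29 in siSFSWAP and 1.46 ± 0.20 in siNT. The order of the means was the same in siSFSWAP and siNT, with HMGN3 and HMGA2 overlapping in siNT, where their means do not differ beyond their spread.

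Processed copies of these genes could share their junction sequences, so exact matches were counted. The junction of exon 2 with exon 4, written as 25 bases from each exon, had no exact match in the GRCh38 chromosomes for HMGN1, HMGN2 or HMGN3. The junction of exon 3 with exon 4 had 1 exact genomic match for HMGN1, 5 for HMGN2 and none for HMGN3. The junction of exon 4 with exon 5, which gives the spliced reads of intron 4, had 1 for HMGN1, 3 for HMGN2 and none for HMGN3. Some inclusion reads and spliced reads could therefore also align to copies, and their part in the results was not tested. In GENCODE release 44 the exon 2 to exon 4 junction was found in a transcript of HMGN1, and in none of HMGN2 or HMGN3.

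Other genes with HMG boxes or nucleosome-binding proteins gave no called event. Of a list of 32, 9 genes had 55 tested introns with a median change of -0.08 points and 20 genes had 157 tested exon events with a median of 0.48 points. At an unadjusted p under 0.05, 3 introns were lower and none higher in the quasi-binomial test, and 3 lower and 2 higher in limma on the log2 odds. For exon events these were 17 lower and 19 higher in the quasi-binomial test, and 11 lower and 19 higher in limma. Nothing is read from these counts, because the share of all tested events at this limit is not given. By spliced reads 6 of 23 tested genes rose and 3 fell in limma, beside backgrounds of 14.7% of 10780 genes called higher and 15.6% called lower. HMG20B, a subunit of a histone demethylase complex, rose by 1.00 on the log2 scale (adjusted p = 0.00605), and TCF7L1, a Wnt pathway transcription factor, rose by 0.68 (adjusted p = 0.00803). PBRM1, a subunit of a chromatin remodeller, changed by -0.41 (adjusted p = 0.00799), and SUPT16H, a subunit of the histone chaperone FACT, by -0.28 (adjusted p = 0.0365), whereas its partner SSRP1 had a value of -0.0004 (adjusted p = 0.997).

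The introns of other genes nearest to the HMGN1 intron by inclusion over the 6 libraries were in NSMF (chromosome 9, 137454444 to 137454745), TMEM234 (chromosome 1, 32216282 to 32216383) and INVS (chromosome 9, 100292437 to 100292946). Their Euclidean distances were 22.9, 24.3 and 27.6 points. NSMF was included at 56.9%, 57.1% and 41.7% in siSFSWAP, against 84.9%, 83.8% and 91.7% in siNT. TMEM234 was included at 60.5%, 49.0% and 41.5% in siSFSWAP, against 80.2%, 91.3% and 100% in siNT. Only the INVS intron, like that of HMGN1, has the same outer splice sites as a listed skipped exon event.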

How the data were processed

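RNA splicing was measured in 3 siSFSWAP and 3 siNT libraries. The authors trimmed reads with cutadapt 1.9.1, aligned them to GRCh38 with STAR 2.7 and ran rMATS. The sources used here do not state whether the libraries were stranded. In units other than expression, the deposited tables hold unnormalised junction counts for retained introns and skipped exons, 3 libraries per cell. The first list was taken as siNT from the direction in which the authors defined their difference, and SFSWAP reads were read as a check. The authors' p-values and differences were not used. Events needed a mean of 20 reads, 5 reads of each form and reads in 2 libraries per group. Inclusion and skipping counts were compared by a quasi-binomial F test (two-sided), with dispersion moderated by limma 3.58.1 (R 4.3.3) and floored at 1, and Benjamini-Hochberg adjustment over the whole table. Spliced reads of genes averaging 20 or more were tested with limma on log2(CPM + 0.5). The fits were tested on simulated data. The members, lists and tests were chosen with earlier results of these data known. Chosen to be given were called events and, per gene and table, the tested event with the largest change and the deepest one. Some of these are given as group means or as the change alone. Exons 2, 3 and 4 of HMGN1, HMGN2 and HMGN3, introns 2 and 4 of HMGN1 and the second HMGN4 exon were added after their values were seen. Alternatives were other read minimums, change sizes, scalings and pseudocounts, no dispersion floor, limma on log2 odds and leaving out each library.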

Additional observations from a re-analysis of the deposited data

How the results depend on the processing

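No paired analysis was possible because the lists carry no replicate numbers. The count of called introns was 1 in all alternatives except limma on the log2 odds, where it was 0. The intron called was always the HMGN1 intron that chose the family, so this count is a description. The count of called exon events, 2, was 0 in limma on the log2 odds, 1 to 2 when a library was left out, and 3 with a change of at least 0.1. By an unadjusted p under 0.05, limma on the log2 odds had 1 higher and 3 lower family introns, and 5 higher and 20 lower exon events. Nothing is read from these counts, because the share of all tested events at this limit is not given. The count of genes called by spliced reads, 2, was 2 to 6 when a library was left out and 2 under every scaling, pseudocount, filter and table tried. HMGA2 passed without siSFSWAP library a (log2 change -0.46, adjusted p = 0.0414) and was at -0.13 without siSFSWAP library c (adjusted p = 0.494). Changes that were not called turned their sign in 3 cases: the log2 change of HMGA1 spliced reads from the retained intron table was 0.10, and with 1 library left out the change in retention was -0.012 to 0.199 points for HMGB1 intron 2 and -0.678 to 0.279 points for HMGN1 intron 3, the sign turning without siNT library b in both. The cause of these differences was not tested. The HMGA1 value from the intron table rests on far fewer reads than its exon table value. No called value changed sign. Depth limits the skipped shares: a siNT library with no skipping read of HMGN1 exon 3 allowed up to 0.81%. Outliers were not sought, with 3 libraries per group.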
